A study of Mus musculus with 516 samples.

Results

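The genes described here encode the machinery that docks vesicles and fuses them with their target membrane: synaptotagmins, syntaxins and their binding proteins, VAMPs (synaptobrevins), the SNAP family, synapsins, SV2 proteins, complexins and synaptophysin. They were chosen by symbol alone, and 51 of the 11251 genes in the table matched: 10 synaptotagmins, 13 syntaxins, 8 genes named Stxbp, 6 VAMPs, 5 genes named Snap, 3 synapsins, 3 SV2 genes, 2 complexins and Syp. Snap91 encodes the clathrin adaptor AP180 and is no SNARE, but its symbol fits the pattern and it was kept. Stxbp3b, matched to the pseudogene Stxbp3-ps, was kept too. Syt2 and Vamp7 were not analysed here.

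The measurements are read counts in 516 single cells from mouse dorsal root ganglia, which hold the cell bodies of sensory neurons. There were 4 groups: cultured CAST/Ei cells (99 cells, 19.2% of the total), naive CAST/Ei cells (33.7%), cultured C57BL/6 cells (21.5%) and naive C57BL/6 cells (25.6%). Naive cells were captured after dissociation, without treatment. Cultured cells, labelled injured, went through in vitro axotomy: after dissociation they spent 48 h on a plate, with ara-C (an inhibitor of dividing cells) added at 24 h, and were lifted and captured on the same kind of microfluidic chip. No allele or transgene is named for either inbred strain, both conditions had been dissociated, and the labels name no animal, age, sex, culture or capture run. Each group was therefore treated as 1 sample, and no difference below has a replicate check or a test.

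As background, vesicle fusion is driven by SNARE proteins that zip together across the gap between the membranes. At synapses the vesicle SNARE is VAMP1 or VAMP2, the target SNAREs are syntaxin 1 and SNAP25, complexins clamp and promote the assembled complex, and synaptotagmins of the fast kind sense the calcium that triggers release. Other compartments and other cells use relatives such as SNAP23, VAMP3, VAMP8, syntaxin 3 and syntaxin 4. Sensory neurons use the synaptic set at their central terminals in the spinal cord and also release peptides from large dense core vesicles, and some release takes place from the cell body.

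Cells were sorted into classes by clustering without the 51 genes, and the comparisons between groups were made over neuron-like cells. These made up 63.6% of cultured and 89.7% of naive CAST/Ei cells, and 32.4% of cultured and 87.9% of naive C57BL/6 cells. They held 65253081 reads in cultured and 159154185 reads in naive CAST/Ei cells, and 18099954 reads in cultured and 94601442 reads in naive C57BL/6 cells, so cultured C57BL/6 cells are the shallowest group, with 36 cells. Every neuron marker of the list used, 16 of 16 genes, was above 1 CPM in each group, with a summed level of 12008 CPM (counts of a gene per 1000000 reads) in cultured and 14359 CPM in naive CAST/Ei neuron-like cells, and of 11531 CPM in cultured and 15318 CPM in naive C57BL/6 neuron-like cells. Cultured and naive neuron-like cells fell into different clusters, apart from 2 cells. Nearly all cultured ones belonged to cluster 1 (33 CAST/Ei and 25 C57BL/6 cells), with the injury-induced genes Sprr1a, Gal and Sox11 among its leading genes and a median of 9023 genes per cell, or to cluster 5 (29 and 10 cells), which had a median of 4649 genes per cell. Neither cluster had a neuron marker among its 10 leading genes, and both were named from the list with the highest mean level. In cluster 5 the single cell with the most reads of a gene held a median of 41.4% of that gene's reads in CAST/Ei and 66.4% in C57BL/6, against 18.9% and 19.6% in cluster 1. For a number of genes the values of both clusters are therefore given beside the sum. Markers of other cells moved with culture too: in neuron-like cells the 13 fibroblast and mural markers summed to 3230 CPM in cultured and 876 CPM in naive CAST/Ei cells, and to 2313 CPM in cultured and 1860 CPM in naive C57BL/6 cells. At least 2-fold higher in culture were 10 of these 13 markers in each strain, and 10 of 16 glial markers in CAST/Ei and 11 of 16 in C57BL/6, although the glial sum was 3125 CPM in cultured and 2650 CPM in naive CAST/Ei cells and 3382 CPM in cultured and 3512 CPM in naive C57BL/6 cells.

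Summed over neuron-like cells, the 51 genes held a somewhat smaller share of the reads in cultured than in naive cells. They summed to 14345 CPM in cultured and 15413 CPM in naive CAST/Ei neuron-like cells, and to 9021 CPM in cultured and 10263 CPM in naive C57BL/6 neuron-like cells. Per cell the sum had a lowest value, median and highest value of 3529, 13581 and 38008 CPM in cultured CAST/Ei cells and of 7485, 14456 and 34548 CPM in naive ones. In C57BL/6 the same 3 values were 3824, 6673 and 21166 CPM in cultured cells and 6312, 9692 and 27205 CPM in naive ones. The ranges overlap widely, and CPM gives a share of the reads, so that the amount of RNA per cell is not known from it. Scaled by the length of their merged exons, Syt4, Snap25 and Syt11 were the 3 highest of the 50 genes with a known length in each of the 4 groups. Syt4 stood first in cultured and in naive CAST/Ei cells, with 1834 and 1258 CPM per kb, and first in cultured C57BL/6 cells with 932 CPM per kb, while Snap25 stood first in naive C57BL/6 cells with 497 CPM per kb.

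Behind these sums, individual genes moved in both directions. With a log2 ratio of (CPM + 1) of at least 1 or at most -1 as the limit, 14 of 51 genes were higher by 2-fold or more and 14 were lower by 2-fold or more in cultured than in naive CAST/Ei neuron-like cells, where 23% and 22.5% of all genes passed. In C57BL/6 the counts were 14 and 13, beside 20.8% and 24.2% of all genes. The median log2 ratio over the 51 genes was -0.16 in CAST/Ei, beside 0.01 over all genes, and -0.38 in C57BL/6, beside -0.15 over all genes. All 51 genes entered each comparison, with no filter on low values. With each gene's top cell left out of every group, 10 genes were higher and 18 lower in CAST/Ei, beside 15.4% and 31.2% of all genes, and 6 were higher and 20 lower in C57BL/6, beside 13.3% and 31.3%. The number of genes past the limit thus depends on single cells. Leaving out the top cell also tends to take a larger share of a gene's reads from the cultured groups, which have fewer cells, than from the naive ones. Fewer higher and more lower genes are therefore partly built into this check, and the shares of all genes moved the same way. Past the limit in both strains were 8 genes on the higher side (12.8% of all genes were) and 11 on the lower side (13.8% of all genes). The higher ones were Vamp5, Vamp8, Stxbp6, Stxbp3a, Vamp3, Snap23, Stx17 and Vamp2, and the lower ones Syt16, Sv2a, Syp, Syt3, Stx1a, Syt7, Syt14, Snap47, Snap25, Stxbp2 and Syn3. Without the top cells 4 were higher in both strains (9.23% of all genes), with Snap23, Vamp2, Stx17 and Stxbp6 under the limit in at least 1 strain, and 16 were lower (21.3%), among them all 11 of these. Because of the built-in shift, this check cannot tell whether the higher genes rest on single cells more than the lower ones do.

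**Figure D1:**
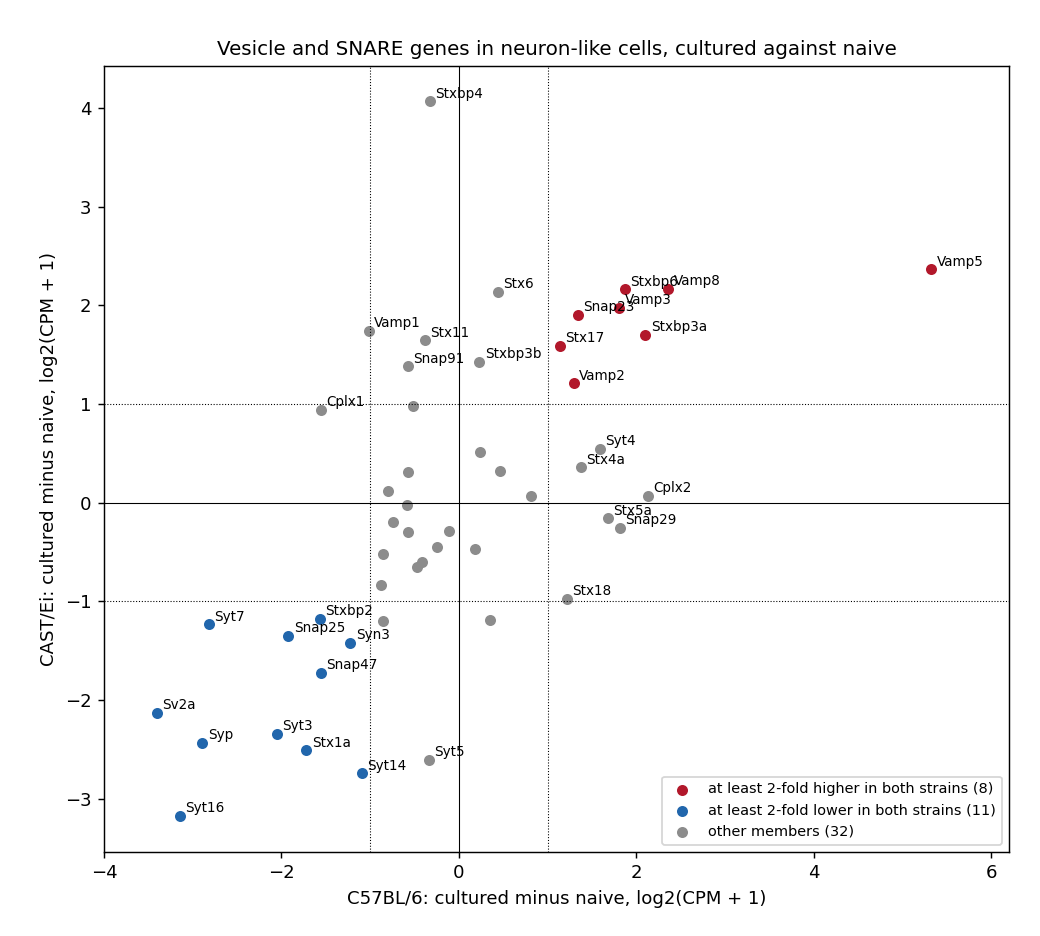
Each point is 1 of the 51 genes, placed by its log2 ratio of (CPM + 1) for cultured against naive neuron-like cells in C57BL/6 (horizontal) and CAST/Ei (vertical); dotted lines mark 2-fold. The 8 genes at the upper right passed 2-fold on the higher side in both strains and the 11 at the lower left on the lower side, while Vamp1 and Cplx1 lie on opposite sides of 0 in the strains.

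The 2 cultured clusters differed in how many of the genes were lower. Within cluster 1, 9 of 51 genes were higher and 24 lower by the same limit in cultured than in naive CAST/Ei cells, beside 17.4% and 19.1% of all genes, and 7 were higher and 22 lower in C57BL/6, beside 17.3% and 20.5%. There 20 of 51 genes were at least 2-fold lower than in naive cells of the same strain in both strains, beside 13.3% of all genes, and 5 were at least 2-fold higher in both, beside 11.9%. The lower ones took in 13 of the 14 measured genes of the release core list, with Vamp1 the exception, among them Snap25, Stx1a, Vamp2, Syt1, Syp, Syn1, Sv2a and Cplx1, and further Snap47, Stxbp2, Syt3, Syt7, Syt9, Syt11 and Syt16. Of the 13, Sv2b passed in C57BL/6 only with the naive cells of cluster 15, described below. It stood at 10.3 CPM in cluster 1 of C57BL/6 and at 13.1 CPM in naive C57BL/6 cells without cluster 15. The higher ones were Snap23, Stxbp3a, Vamp3, Vamp5 and Vamp8. Within cluster 5, 11 genes were higher and 13 lower in CAST/Ei, beside 25.4% and 34.4% of all genes, and 14 were higher and 18 lower in C57BL/6, beside 20.5% and 52.6%. In that cluster 10 genes were at least 2-fold lower in both strains, but so were 25.6% of all genes there, and 2 were higher in both (10.1% of all genes). Lower in clusters 1 and 5 of both strains were 7 genes, Snap25, Stx1a, Sv2a, Syp, Syt3, Syt7 and Syt16 (7.92% of all genes were), and higher in all 4 was none (4.23% of all genes).

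Snap25, the target SNARE of the plasma membrane and the most abundant SNARE per length here, was lower in clusters 1 and 5 of both strains. It stood at 1885 CPM (95% Poisson interval 1874 to 1895) in cultured and 4809 CPM (4798 to 4820) in naive CAST/Ei neuron-like cells. In C57BL/6 it stood at 891 CPM (877 to 904) in cultured and 3374 CPM (3362 to 3385) in naive cells. Single cells ranged from 8.44 to 6040 CPM with a median of 1306 in cultured CAST/Ei cells and from 446 to 17382 with a median of 3699 in naive ones. In C57BL/6 they ranged from 1.01 to 3385 CPM with a median of 733 in cultured cells and from 654 to 20028 with a median of 2628 in naive cells. The ranges of single cells overlap in both strains, while each cultured median lies well below the naive one. The log2 ratio was -1.35 in CAST/Ei and -1.92 in C57BL/6, and it was -1.23 and -1.81 in cluster 1 alone and -1.47 and -2.12 in cluster 5 alone. Stx1a, its syntaxin partner, stood at 8.24 CPM in cultured and 51.6 CPM in naive CAST/Ei cells (log2 ratio -2.51), and at 14.1 CPM in cultured and 48.7 CPM in naive C57BL/6 cells (-1.72). Its C57BL/6 ratio depended on how cells were weighted, and was 0.14 when every cell counted the same, beside -1.97 without the cell with most reads in each group.

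The vesicle proteins Syp and Sv2a had the lowest ratios of the release core in C57BL/6, and in CAST/Ei they came after Stx1a. Syp, the abundant tetraspan protein synaptophysin, stood at 6.94 CPM in cultured and 41.9 CPM in naive CAST/Ei cells (log2 ratio -2.43), and at 14.97 CPM in cultured and 117.6 CPM in naive C57BL/6 cells (-2.89). After thinning each cell to 200000 reads, at least 5 Syp reads were found in 7.02% of cultured (exact 95% interval 1.95 to 17.004) and 53.4% of naive (45.01 to 61.6) CAST/Ei cells. In C57BL/6 they were found in 32.1% of cultured (15.9 to 52.4) and 89.9% of naive (82.7 to 94.8) neuron-like cells, against 10.1% of the other cultured cells. Without thinning, the shares were 22.2% of cultured and 61.5% of naive CAST/Ei cells and 41.7% of cultured and 93.1% of naive C57BL/6 cells. The intervals treat the cells as draws from 1 sample per group and hold no spread between samples. Sv2a, a vesicle glycoprotein and the target of the antiepileptic drug levetiracetam, stood at 6.56 CPM in cultured and 32.1 CPM in naive CAST/Ei cells (-2.13), and at 3.48 CPM in cultured and 46.4 CPM in naive C57BL/6 cells (-3.40). With equal weight per cell its CAST/Ei ratio was -0.71, and single cells of cluster 5 reached 623 CPM. Sv2b had a ratio of -0.65 in CAST/Ei and -0.47 in C57BL/6, but without the 10 naive cells of cluster 15 its naive C57BL/6 level was 13.1 CPM and the C57BL/6 ratio 1.12. Sv2c stood at 17.7 CPM in cultured and 41.6 CPM in naive CAST/Ei cells but at 34.6 CPM in cultured and 26.8 CPM in naive C57BL/6 cells, where 1 cell held 82.9% of the cultured reads.

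The 250 bases before the transcription start of Syp and Stx1a are shown because both genes were lower in clusters 1 and 5 of both strains. They come from RefSeq on build GRCm38.p6, at chrX:7638330-7638579 (plus strand) for Syp and chr5:135023232-135023481 (plus strand) for Stx1a, written 5′ to 3′ along the gene, with GC boxes (GGGCGG on either strand) in capitals.
Syp: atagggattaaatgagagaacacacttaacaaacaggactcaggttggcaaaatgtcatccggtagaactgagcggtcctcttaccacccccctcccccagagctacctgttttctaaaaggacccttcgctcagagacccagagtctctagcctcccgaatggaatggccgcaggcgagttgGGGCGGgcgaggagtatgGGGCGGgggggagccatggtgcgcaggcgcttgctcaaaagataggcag
Stx1a: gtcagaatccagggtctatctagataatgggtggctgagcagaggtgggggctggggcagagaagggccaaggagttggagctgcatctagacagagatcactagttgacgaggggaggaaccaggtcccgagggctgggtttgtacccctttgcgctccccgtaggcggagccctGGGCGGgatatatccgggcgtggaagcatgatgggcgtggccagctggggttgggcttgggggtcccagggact
Syp has 2 such boxes and Stx1a has 1. Searching the same 250 bases of all genes in the RefSeq table found a GC box in 32.7% of 32851 promoters, and in 58.5% of the 53 promoters that the table holds for 41 of the genes described here. The first set holds all RefSeq genes and the second only genes with reads in these cells. These shares are therefore not like for like, and the share among all genes measured here was not computed.

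Synaptotagmins went separate ways. Syt1, the fast calcium sensor, stood at 163.03 CPM in cultured and 376 CPM in naive CAST/Ei cells (log2 ratio -1.20), and at 164.6 CPM in cultured and 299 CPM in naive C57BL/6 cells (-0.86). Its ratio was -1.95 in cluster 1 and -0.96 in cluster 5 of CAST/Ei, and -1.54 in cluster 1 and -0.24 in cluster 5 of C57BL/6. Syt7, the slow high-affinity sensor, stood at 50.2 CPM in cultured and 119.3 CPM in naive CAST/Ei cells (-1.23; -0.36 with equal weight per cell), and at 11.3 CPM in cultured and 85.95 CPM in naive C57BL/6 cells (-2.82). The low genes Syt3 and Syt16 stood under 1 CPM in the cultured cells of both strains, Syt16 with 14.7 CPM in naive CAST/Ei and 12.2 CPM in naive C57BL/6 cells. Syt4, a calcium-independent synaptotagmin that is induced by activity and found on dense core vesicles, did not follow the others. It stood at 7138 CPM in cultured and 4896 CPM in naive CAST/Ei cells (0.54), and at 3626 CPM in cultured and 1203 CPM in naive C57BL/6 cells (1.59). Lowest, median and highest cell had 876, 5220 and 31365 CPM of Syt4 in cultured and 368, 4347 and 18944 CPM in naive CAST/Ei cells. They had 852, 2940 and 9459 CPM in cultured and 31.7, 957 and 3579 CPM in naive C57BL/6 cells, so the ranges overlap in both strains. Exons of Syt4 overlap an antisense gene over 14.5% of their length and those of Syp over 16.8%. Antisense overlap was 32.3% for Stx18, 14.1% for Syn3 (with Timp3) and 11.6% for Snap47 (with Jmjd4). Whether reads were counted by strand is not given in the sources used here, so reads of such neighbours may be counted for these genes. Syt11, the close relative of Syt4, was at least 2-fold lower in cluster 1 of both strains (-1.17 in CAST/Ei and -1.09 in C57BL/6) but not in cluster 5 (-0.21 and -0.54).

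Vamp2, the main synaptic vesicle SNARE, moved in opposite directions in the 2 cultured clusters. Summed over neuron-like cells it was higher, with 162.97 CPM in cultured and 69.9 CPM in naive CAST/Ei cells and 155.14 CPM in cultured and 62.7 CPM in naive C57BL/6 cells. Within cluster 1 it stood at 20.5 CPM in CAST/Ei (log2 ratio -1.72 against naive) and 22.5 CPM in C57BL/6 (-1.44). Within cluster 5 it stood at 263 CPM in CAST/Ei (1.89) and 372 CPM in C57BL/6 (2.55). The median cell had 14.3 CPM in cluster 1, 130 CPM in cluster 5 and 61.9 CPM among naive cells in CAST/Ei, and 16.7, 184 and 52.6 CPM in C57BL/6, so the opposite moves do not rest on 1 cell. It was the only gene of the 51 past the limit in opposite directions in clusters 1 and 5 of both strains. Syn1, a synapsin that tethers vesicles, was lower in cluster 1, with log2 ratios of -1.68 in CAST/Ei and -1.36 in C57BL/6. Its sum in cluster 5 was near the naive level, with 0.15 in CAST/Ei and 0.13 in C57BL/6. In C57BL/6, however, 1 of the 10 cells of cluster 5 held 77.3% of these reads, so that value rests on 1 cell. The part of the lower number of genes per cell in cluster 5 in these differences was not tested.

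**Figure D2:**
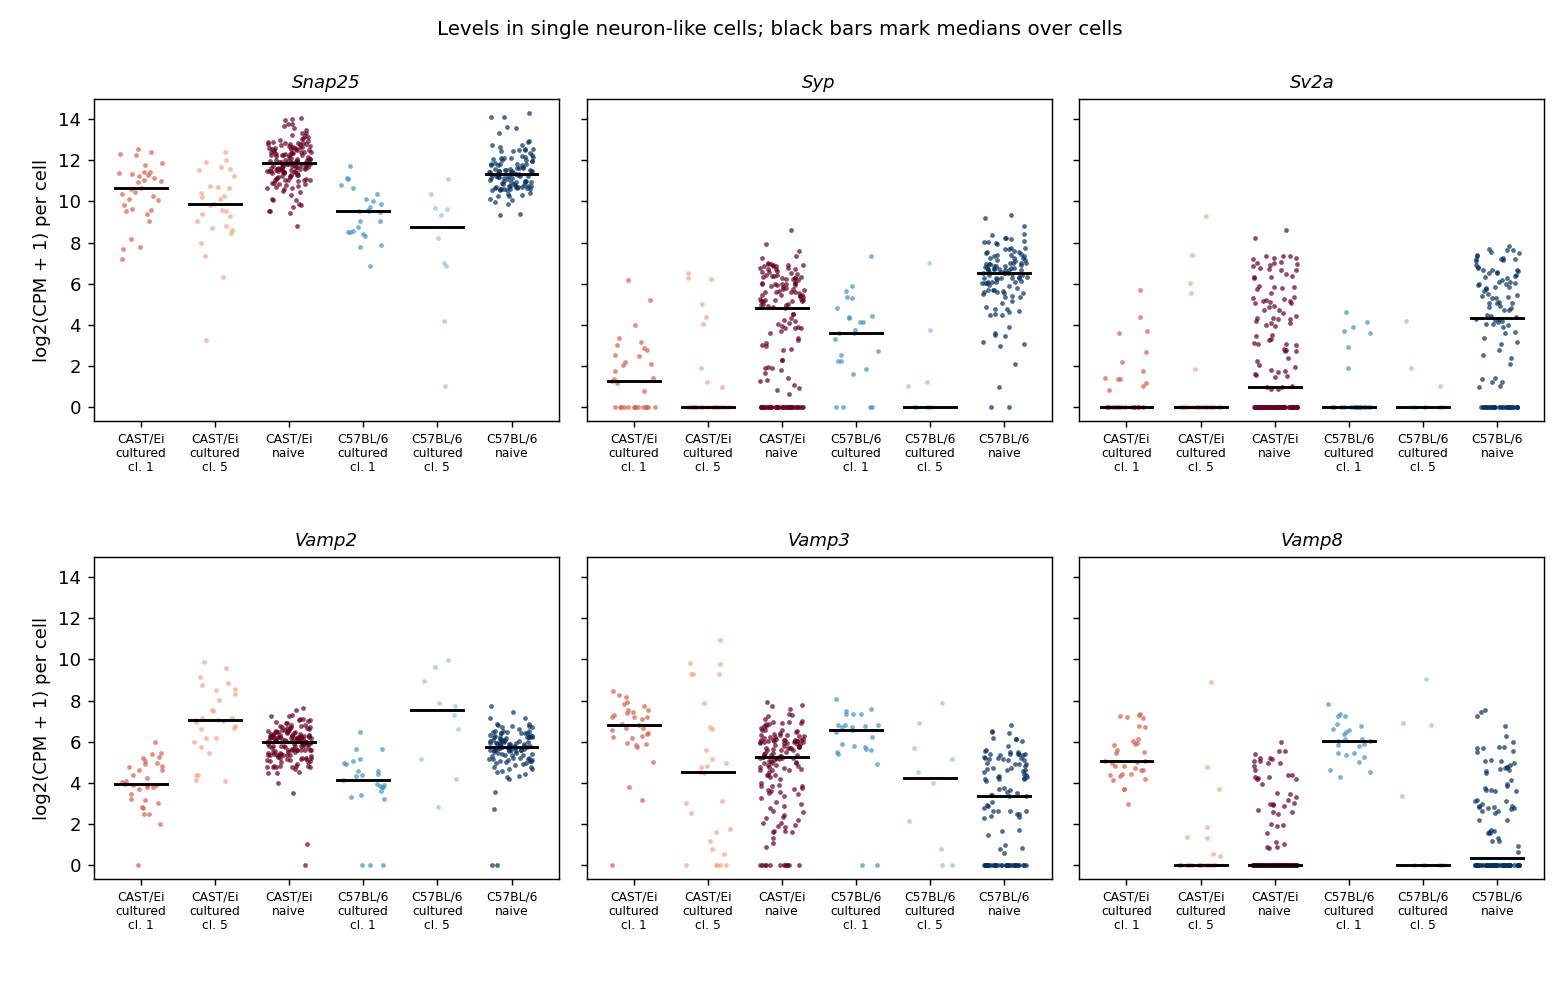
Each point is 1 neuron-like cell, placed by its log2(CPM + 1) for 6 genes, with cultured cells of clusters 1 and 5 left of naive cells in each strain and black bars at the median over cells. Snap25, Syp and Sv2a have lower medians in both cultured clusters than in naive cells, Vamp2 is lower in cluster 1 and higher in cluster 5, and Vamp3 and Vamp8 are highest in cluster 1.

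Among the 8 genes higher in both strains are 5, described first here, that are known from general membrane traffic or from cells other than neurons. Such genes did not all move this way. Of 12 measured genes on the list of non-neuronal relatives, 5 were higher and 2 lower in CAST/Ei, beside 23% and 22.5% of all genes. In C57BL/6 6 were higher and 2 lower, beside 20.8% and 24.2%. Snap47 and Stxbp2 of that list were at least 2-fold lower in both strains. Vamp3 (cellubrevin, the vesicle SNARE of recycling endosomes) stood at 201 CPM in cultured and 50.4 CPM in naive CAST/Ei cells (log2 ratio 1.98), and at 70.6 CPM in cultured and 19.5 CPM in naive C57BL/6 cells (1.81). In cluster 1 its ratio was 1.43 in CAST/Ei and 2.43 in C57BL/6. In cluster 5 it was 2.27 in CAST/Ei and -0.30 in C57BL/6. The median cell went the other way in both strains. It had 21.5 CPM of Vamp3 in cluster 5 and 37.5 CPM among naive cells in CAST/Ei, and 18.1 and 9.01 CPM in C57BL/6. Vamp8 (endobrevin, of late endosomes and regulated secretion outside neurons) stood at 27.9 CPM in cultured and 5.44 CPM in naive CAST/Ei cells (2.17), and at 82.1 CPM in cultured and 15.2 CPM in naive C57BL/6 cells (2.36). Every cell of cluster 1 had reads of it, from 6.83 to 161.8 CPM with a median of 31.9 in CAST/Ei and from 18.4 to 224 CPM with a median of 64.8 in C57BL/6, while 72.4% of naive CAST/Ei cells and 50% of naive C57BL/6 neuron-like cells had none. In cluster 5 of CAST/Ei 21 of 29 cells had none, and the ratio there was -0.65. Snap23, the widely expressed relative of Snap25, stood at 35.98 CPM in cultured and 8.90 CPM in naive CAST/Ei cells (1.90; 0.95 without the top cell), and at 20.9 CPM in cultured and 7.63 CPM in naive C57BL/6 cells (1.35). Its ratio was 1.85 and 1.82 in cluster 1 of CAST/Ei and C57BL/6, and 1.97 and -2.91 in cluster 5. In cluster 5 of CAST/Ei 1 cell held 89.1% of the Snap23 reads, and cluster 5 of C57BL/6 had 1 read. Vamp5, known from muscle and other non-neuronal cells, stood at 12.8 CPM in cultured and 1.68 CPM in naive CAST/Ei cells (2.36), with a ratio of 3.45 in cluster 1 and 0.51 in cluster 5. In C57BL/6 it stood at 146.1 CPM in cultured and 2.66 CPM in naive cells (5.33), but 1 cell held 83.9% of the cultured reads, and without it the ratio was 3.39. Stxbp3a, a syntaxin-binding protein found widely outside neurons, stood at 26.7 CPM in cultured and 7.53 CPM in naive CAST/Ei cells (1.70) and at 51.5 CPM in cultured and 11.2 CPM in naive C57BL/6 cells (2.10). Its ratio was 2.83 in cluster 1 and -0.46 in cluster 5 of CAST/Ei, and 1.27 in cluster 1 and 2.92 in cluster 5 of C57BL/6. In that last cluster 1 cell held 89.5% of the Stxbp3a reads. Without the top cell of each group the summed ratio of Stxbp3a was 1.51 in CAST/Ei and 1.35 in C57BL/6. The table also lists Stxbp3b, matched by synonym to the pseudogene Stxbp3-ps, which shares 70.9% of its 50-base stretches with other genes, most of all with Stxbp3. The division of reads between Stxbp3a and Stxbp3b is therefore uncertain. Stxbp6 in C57BL/6 rests on 1 cell with 92.1% of the cultured reads and had a ratio of -0.92 without it. Without its top cell Stx17 had ratios of 0.61 in CAST/Ei and 0.83 in C57BL/6, under the limit.

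The other cultured cells had these genes too. In these cells, which were fibroblast-and-mural-like or glia-like, Vamp8 stood at 109.2 CPM in CAST/Ei and 146.7 CPM in C57BL/6, Vamp3 at 248 and 191 CPM, Snap23 at 82.7 and 92.6 CPM, and Stxbp3a at 124.3 and 74.3 CPM. Each of these levels is higher than in the cultured neuron-like cells of that strain. Vamp5 stood at 47.1 CPM in the other cultured CAST/Ei cells, above neuron-like cells, and at 70.6 CPM in the other cultured C57BL/6 cells, below the 146.1 CPM of neuron-like cells. As given above, most reads behind that last level came from 1 cell, which belonged to cluster 5. Within cluster 1 of C57BL/6, Vamp5 was lower than in the other cultured cells, as the other genes were over all neuron-like cells. Fibroblast and mural markers, as given above, were also higher in cultured neuron-like cells, and in cluster 1 they summed to 5279 CPM in CAST/Ei and 2887 CPM in C57BL/6. Their part in the higher levels of the 5 genes was not tested.

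The upstream 250 bases of Vamp8 and Vamp5 are shown because both genes were at least 2-fold higher in both strains and are neighbours on chromosome 6, on the same strand, with starts 10199 bases apart. They lie at chr6:72390668-72390917 (minus strand) and chr6:72380469-72380718 (minus strand) of RefSeq's GRCm38.p6, with GC boxes in capitals.
Vamp8: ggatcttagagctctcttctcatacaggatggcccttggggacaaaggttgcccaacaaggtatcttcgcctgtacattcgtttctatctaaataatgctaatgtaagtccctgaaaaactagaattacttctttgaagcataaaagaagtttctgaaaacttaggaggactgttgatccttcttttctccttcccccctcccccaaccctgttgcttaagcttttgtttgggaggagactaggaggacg
Vamp5: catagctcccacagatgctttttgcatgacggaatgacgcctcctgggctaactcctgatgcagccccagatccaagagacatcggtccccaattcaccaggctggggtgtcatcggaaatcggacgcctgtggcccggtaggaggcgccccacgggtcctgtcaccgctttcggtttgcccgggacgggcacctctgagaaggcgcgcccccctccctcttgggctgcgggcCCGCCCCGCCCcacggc
The Vamp8 stretch holds no GC box and the Vamp5 stretch 2, which overlap. Of the genes at least 2-fold higher in both strains, 2 of 5 with a promoter in the table had a GC box, and of those at least 2-fold lower 6 of 8. Among all 41 genes with a promoter there, 29 had a GC box, so 6 of 8 is near the share of all, and 2 of 5 rests on few genes. The full AP-1 site TGANTCA, searched on both strands, was in 6.75% of all promoters and in those of none of the 41 genes. The cAMP response element TGACGTCA, in 1.55% of all promoters, and the left arm of the RE1 silencer element, TTCAGCACC, in 0.301%, were both found for Syn1 only.

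Other genes of the release pathway, from lists of related genes, are counted here against the same shares of all genes past the limit. Of 26 measured genes of the active zone and of priming, 1 was at least 2-fold higher and 13 lower in cultured than in naive CAST/Ei cells, and 2 higher and 14 lower in C57BL/6, with medians of -0.94 and -1.22. Rph3a (rabphilin, a Rab3 effector) stood at 8.35 CPM in cultured and 102.2 CPM in naive CAST/Ei cells and at 8.56 CPM in cultured and 160.9 CPM in naive C57BL/6 cells. Ppfia1 (liprin alpha 1) went the other way, with 137.8 CPM in cultured and 33.3 CPM in naive CAST/Ei cells and 56.96 CPM in cultured and 20.3 CPM in naive C57BL/6 cells. Of 24 vesicle membrane proteins and transporters 2 were higher and 8 lower in CAST/Ei and 2 higher and 11 lower in C57BL/6. The synaptogyrin Syngr3 stood at 55.03 CPM in cultured and 358 CPM in naive C57BL/6 cells. Among 11 genes of dense core vesicle cargo and its processing 1 was higher and 7 lower in CAST/Ei and 1 higher and 6 lower in C57BL/6. The granins Chga (4.26 CPM in cultured and 64.5 CPM in naive CAST/Ei cells) and Scg3 (136.2 CPM in cultured and 1060.05 CPM in naive CAST/Ei cells) were among the lower ones. The higher one was Vgf, a secreted neuropeptide precursor, with 34.7 CPM in cultured and 9.81 CPM in naive CAST/Ei cells and 80.99 CPM in cultured and 8.10 CPM in naive C57BL/6 cells. The 22 SNAREs of other compartments and SNARE recycling factors had 2 higher and 5 lower in CAST/Ei, 2 higher and 4 lower in C57BL/6 and medians of 0.00 and -0.15. Napa (alpha-SNAP, which recruits the ATPase that takes spent SNARE complexes apart) was lower in both, with 304 CPM in cultured and 864 CPM in naive CAST/Ei cells and 192 CPM in cultured and 607 CPM in naive C57BL/6 cells. The 28 endocytosis genes had 5 higher and 7 lower in CAST/Ei and 7 higher and 11 lower in C57BL/6.

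Between the strains, naive CAST/Ei and naive C57BL/6 neuron-like cells differed in few of the genes. At least 2-fold higher in CAST/Ei were 4 of 51 (7.23% of all genes) and at least 2-fold lower 6 (6.2% of all genes), with a median log2 ratio of 0.08 beside 0.06 over all genes. Syt4 was the largest, at 4896 CPM in naive CAST/Ei and 1203 CPM in naive C57BL/6 cells (log2 ratio 2.02). Vamp4, the SNARE that cycles between the trans-Golgi network and endosomes, stood at 543 CPM in CAST/Ei and 197 CPM in C57BL/6 (1.46). Vamp3 stood at 50.4 CPM in CAST/Ei and 19.5 CPM in C57BL/6 (1.33), and Stx3, a plasma membrane syntaxin also found at ribbon synapses, at 35.7 and 16.97 CPM (1.03). Lower in CAST/Ei were Vamp1 (13.6 CPM in CAST/Ei and 45.6 CPM in C57BL/6, -1.67), Sv2b (12.7 and 41.2 CPM, -1.62), Syp (41.9 and 117.6 CPM, -1.47), Vamp8 (5.44 and 15.2 CPM, -1.33), Stxbp4 (4.17 and 11.7 CPM, -1.30) and Stxbp6. Part of this list came from 1 cluster. Cluster 15, 10 cells with the neurofilament gene Nefh among the 10 leading genes, held naive C57BL/6 cells alone, and without it the ratio was -0.03 for Sv2b, -0.08 for Stxbp6 and -0.99 for Vamp1, while Syp kept -1.27.

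The strain comparison was repeated within 5 pairs of naive clusters, each named by a marker among the 10 leading genes of both clusters: Tac1 (27 CAST/Ei and 23 C57BL/6 cells), Th (28 and 31), Mrgprd (33 and 26), Mrgpra3 (55 and 20) and Sst with Nppb (13 and 6). These markers are known from peptidergic nociceptors, low-threshold C fibres, non-peptidergic nociceptors and the itch-related types. Syt4 and Vamp4 were at least 2-fold higher in CAST/Ei in 5 of 5 pairs, as were 1.78% of all genes. Syt4 stood at 6058 CPM in CAST/Ei and 1577 CPM in C57BL/6 in the Tac1-marked pair, at 2680 and 512 CPM in the Th-marked pair, at 6458 and 2446 CPM in the Mrgprd-marked pair, at 4862 and 1150 CPM in the Mrgpra3-marked pair and at 5554 and 875 CPM in the Sst-marked pair. In each strain the Th-marked cluster had the least Syt4 of these 5 and the Mrgprd-marked one the most. In the Tac1-marked pair Vamp4 stood at 717 CPM in CAST/Ei and 238 CPM in C57BL/6. It stood at 384 and 153.2 CPM in the Th-marked pair, at 496 and 199 CPM in the Mrgprd-marked pair, at 564 and 239 CPM in the Mrgpra3-marked pair and at 650 and 215 CPM in the Sst-marked pair. Higher in CAST/Ei in 5 of 5 pairs at any size were 7 genes, Snap25, Snap29, Stx6, Syt4, Syt5, Vamp3 and Vamp4 (14.5% of all genes), and lower in 5 of 5 were 6, Snap47, Stx5a, Syp, Syt9, Syt11 and Vamp1 (8.21% of all genes). None of the 51 was at least 2-fold lower in all 5 pairs, as were 0.978% of all genes. Syp stood at 27.9 CPM in CAST/Ei and 95.05 CPM in C57BL/6 in the Tac1-marked pair, at 98.6 and 164.6 CPM in the Th-marked pair, at 12.2 and 82.04 CPM in the Mrgprd-marked pair, at 33.6 and 65.9 CPM in the Mrgpra3-marked pair and at 1.2 and 14.6 CPM in the Sst-marked pair.

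**Figure D3:**
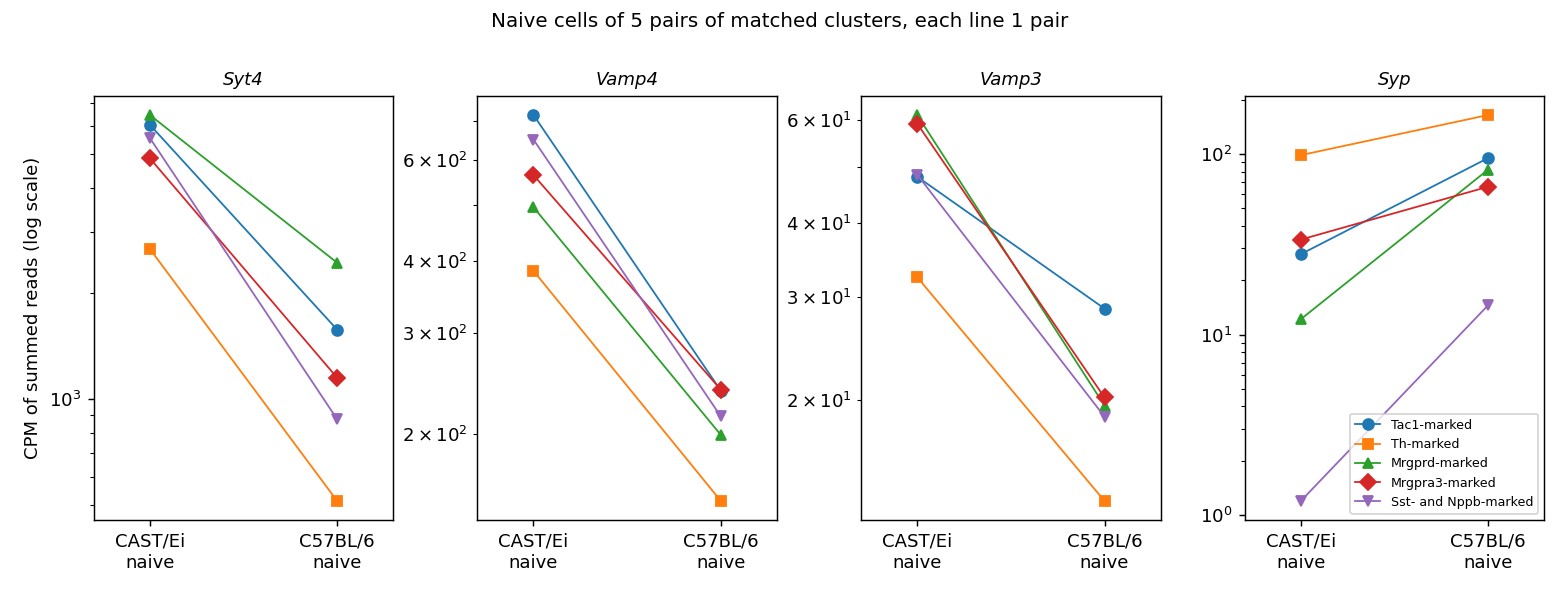
Each line joins the CPM (log scale) of 1 gene in a naive CAST/Ei cluster, on the left, and in the naive C57BL/6 cluster with the same marker, on the right, for 5 pairs. Syt4, Vamp4 and Vamp3 are higher in CAST/Ei in every pair and Syp is lower in every pair.

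Levels also varied between neuron types. Cluster 15, the Nefh-marked C57BL/6 cells, had the highest level among the naive C57BL/6 clusters of Snap25 (11207 CPM), Cplx1 (1469 CPM), Sv2b (419 CPM), Syp (323 CPM), Syn2 (302 CPM), Vamp1 (281 CPM) and Stxbp5l (135.9 CPM, tomosyn-2, an inhibitor of SNARE assembly). The other 5 C57BL/6 clusters ranged from 1512 to 3565 CPM for Snap25, from 119.1 to 472 CPM for Cplx1, from 1.98 to 34.5 CPM for Sv2b and from 21.6 to 30.6 CPM for Vamp1. No cell of cluster 15 held more than 25.2% of the reads of those 7 genes. The same cells were low in Syt5 (1.67 CPM), Syt7 (3.35 CPM), Stx1a (4.11 CPM), Stx2 (4.57 CPM), Syt9 (11.6 CPM) and Syt4 (393 CPM). Vamp2 stood at 33.2 CPM there and at 58.5 to 80.4 CPM in the other 5 C57BL/6 clusters. Vamp1 and Vamp2 are the alternative vesicle SNAREs of synapses.

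The small-fibre clusters had patterns that both strains shared. The Th-marked clusters had the most Syt1, with 695 CPM in CAST/Ei and 477 CPM in C57BL/6. They also had the most Sv2a, with 85.7 and 88.5 CPM, and the most Sv2c, with 89.1 and 50.6 CPM. The Tac1-marked clusters had the most Stx1a (93.2 CPM in CAST/Ei and 97.2 CPM in C57BL/6) and Syt16 (51.3 and 44.6 CPM). The Sst-marked clusters had the most Syn3 (102.3 and 156.9 CPM), although in C57BL/6 1 of 6 cells held 81.7% of its reads and the level without that cell was 43.2 CPM. They had next to no Sv2a (0.28 and 0.14 CPM) and also the least Syt7 of the 5 (6.35 and 9.8 CPM), which stood at 146.1 and 153.01 CPM in the Mrgprd-marked clusters. The C57BL/6 cluster of this type is only 6 cells.

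**Figure D4:**
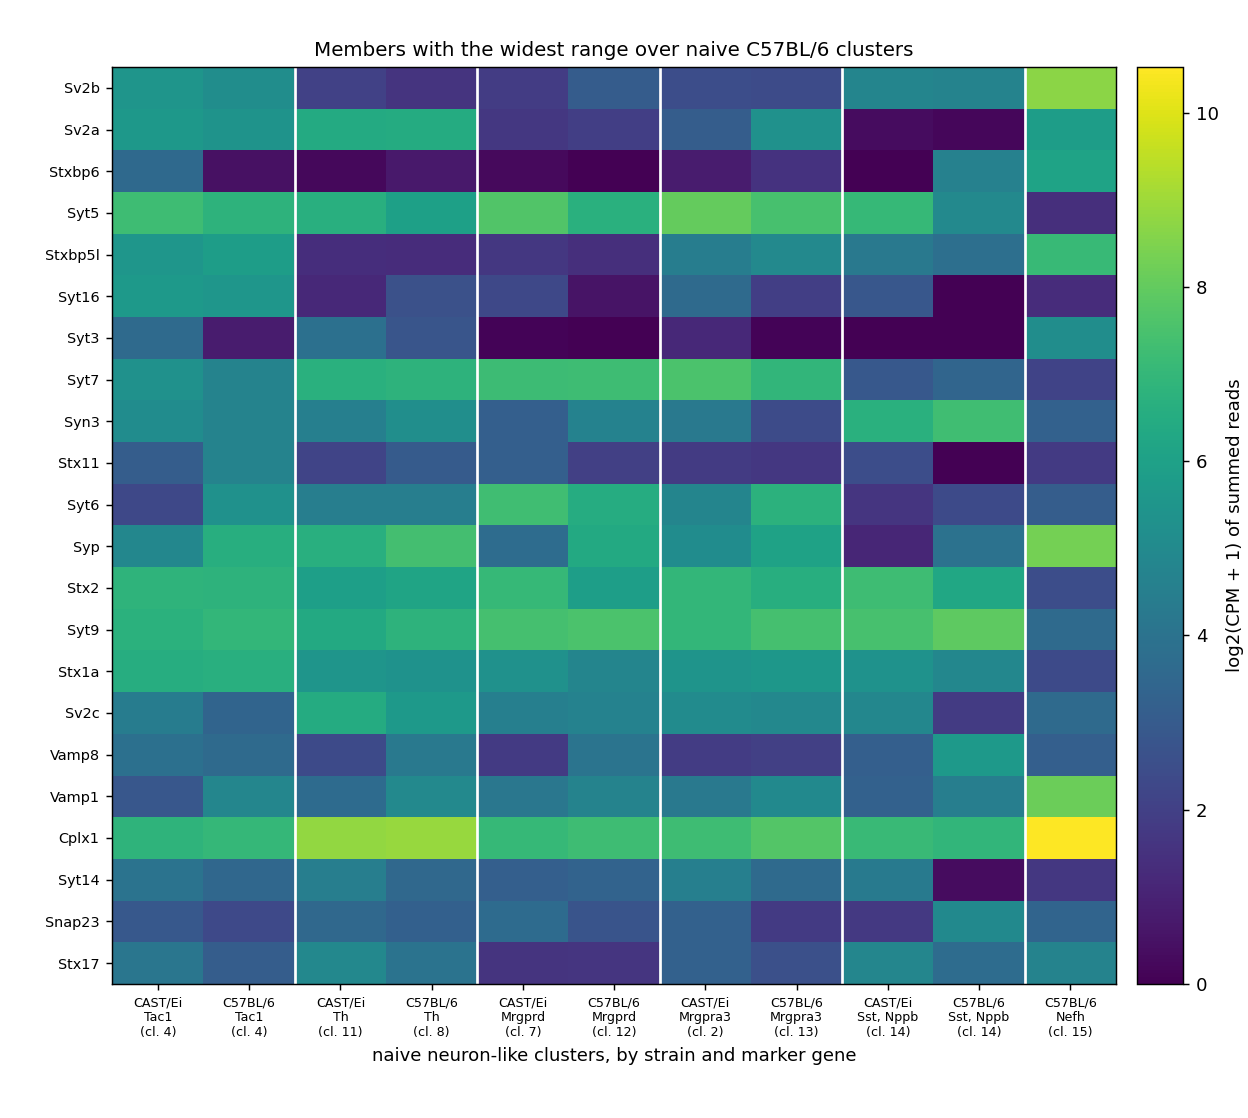
Colour gives log2(CPM + 1) of the reads summed over the cells of each naive cluster, CAST/Ei left of C57BL/6 in each pair with the same marker gene, for the genes whose log2(CPM + 1) spans at least 3 units over the naive C57BL/6 clusters. Cluster 15 at the right, present in C57BL/6 alone, is highest in Sv2b, Vamp1, Cplx1 and Syp and lowest in Syt5, Syt7, Stx1a and Stx2.

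In culture the strains differed in more of the genes, and the calls were less firm. At least 2-fold higher in cultured CAST/Ei than in cultured C57BL/6 neuron-like cells were 13 of 51 (21.2% of all genes) and at least 2-fold lower 10 (13.7%), but with median-of-ratios scaling the counts were 10 and 13. That scaling moved the median over all genes to -0.04, against 0.16 with CPM. Syt7 and Vamp4 had ratios of at least 1 in each of the summed, cluster 1, equal-weight and top-cell-removed values. Syt7 stood at 50.2 CPM in cultured CAST/Ei and 11.3 CPM in cultured C57BL/6 cells (log2 ratio 2.05), and Vamp4 at 357 and 148.07 CPM (1.27). Snap25 stood at 1885 and 891 CPM (1.08), with 0.87 under median-of-ratios scaling. Syt4 stood at 7138 and 3626 CPM (0.98), with 9664 and 3235 CPM in cluster 1. Vamp3 (1.5, but 0.33 in cluster 1), Vamp8 (-1.52, -0.10 in cluster 1) and Vamp5 (-3.42, -0.42 in cluster 1) passed the limit over all neuron-like cells but not within cluster 1. The highest positive ratio, 3.10 for Stxbp4, rests on 1 CAST/Ei cell with 86.5% of the reads and was 0.75 without it.

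The response to culture, as the difference of the log2 ratios of CAST/Ei and C57BL/6, was at least 1 for 10 genes (19.6% of all genes) and at most -1 for 10 (15.2%), with a median of -0.03. Vamp1 differed most among genes of the release core. It stood at 47.8 CPM in cultured and 13.6 CPM in naive CAST/Ei cells (log2 ratio 1.74), and at 22.1 CPM in cultured and 45.6 CPM in naive C57BL/6 cells (-1.01). Without cluster 15 naive C57BL/6 cells had 28.05 CPM, the C57BL/6 ratio was -0.33, under the limit, and the difference of 2.75 became 2.07. Its median cell had 4.6 CPM in cultured and 7.18 CPM in naive CAST/Ei cells, the reverse order of the sums, and 3.03 CPM in cultured and 17.3 CPM in naive C57BL/6 cells. Cplx1 stood at 405 CPM in cultured and 210.2 CPM in naive CAST/Ei cells (0.94) and at 114.3 CPM in cultured and 338 CPM in naive C57BL/6 cells (-1.56). Its difference of 2.50 was 1.17 in cluster 1 alone, where Cplx1 was lower in both strains (-1.66 in CAST/Ei and -2.83 in C57BL/6), while in cluster 5 it was 1.62 in CAST/Ei and -0.56 in C57BL/6. Syt7 was lower in both strains, with a difference of 1.59, and Syt4 was higher in both, with a difference of -1.05 that was under the limit without the top cell (-0.92), with equal weight per cell (-0.74), without cluster 15 (-0.98) and in cluster 1 alone (-0.45). Cplx2 in C57BL/6 (217 CPM in cultured and 48.9 CPM in naive cells) rests on 1 cell with 82.5% of the cultured reads, and its difference of -2.06 was 0.09 without it.

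Compared with the other cultured cells of the strain, cultured neuron-like cells had most of the release core at higher levels. At least 2-fold higher in neuron-like than in other cultured cells were 23 of 51 genes in CAST/Ei (19.7% of all genes) and 34 in C57BL/6 (17.7%), and at least 2-fold lower were 6 in each (23.3% and 27.7%). Of the 14 measured genes of the release core list, 9 were at least 2-fold higher in CAST/Ei and 14 in C57BL/6, and none was 2-fold lower, though Stx1a (log2 ratio -0.82) and Syn2 (-0.38) were on the lower side in CAST/Ei. Snap25 stood at 1885 CPM in neuron-like and 379 CPM in other cultured CAST/Ei cells, and at 891 CPM in neuron-like and 54.6 CPM in other cultured C57BL/6 cells. Thinned to 200000 reads, 98.2% of neuron-like and 84.8% of other cultured CAST/Ei cells had at least 5 reads of it, and 96.4% and 53.6% in C57BL/6. Syt4 reads were found in all thinned cells of both classes, with 7138 CPM in neuron-like and 1261 CPM in other cultured CAST/Ei cells and 3626 CPM in neuron-like and 308 CPM in other cultured C57BL/6 cells. Both classes come from 1 sample in each strain.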

How the data were processed

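Reads of 516 single mouse cells were sequenced from libraries made on a microfluidic chip by priming on the polyA tail and tagmentation, per the labels' protocols; they carry no molecular identifiers, so intervals cover counting error only. Raw read counts per gene and cell, whole numbers that are not normalized, stand in the single table that the authors deposited. Bowtie2, SAMtools and build mm10 are named per the submitters' processing notes, without versions. Not given in the sources used here: the counting program, annotation, strand setting and filters. Reads of CAST/Ei carry that strain's variants against a C57BL/6 reference, which can lower its counts. Each gene has reads in at least 60 cells, and cells had 13932 to 2978345 reads with a median of 839147. The groups held 99 cultured and 174 naive CAST/Ei cells and 111 cultured and 132 naive C57BL/6 cells, of which 63 and 156, and 36 and 116, were neuron-like.

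The members and all gene lists were chosen with earlier results of these data known. All cells were clustered without the 51 genes in scanpy 1.11.5 (2000 variable genes, log2(CPM + 1), 20 components, 15 neighbours, Leiden resolution 1, 15 clusters). Clusters were named by the marker list with the highest mean, unless another list had more markers among the 10 leading genes. Cluster 6, naive cells with Flt1 and Iigp1 among the leading genes, had its highest mean for the neuron list but stayed unnamed by this rule. Its glial mean was 4.98, beside 5.28 in cultured cluster 1, which was kept. Its 18 CAST/Ei cells had 113.8 CPM of Vamp8, 107.8 of Snap23, 75.0 of Vamp3, 38.5 of Stxbp3a and 29.0 of Vamp5. Each is above the naive CAST/Ei neuron-like level, which leaves these cells out. The part of this in the culture ratios was not tested on its own. Of the macrophage markers only Cd68 was measured, with at most 21.3 CPM in a group, and 0 of the 5 erythroid markers were; no doublet caller was run. Of 11 endothelial markers 9 were measured, summing to 25.7 CPM in cultured and 77.0 CPM in naive CAST/Ei and to 64.2 CPM in cultured and 79.4 CPM in naive C57BL/6 neuron-like cells.

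For each group, the reads of its neuron-like cells were added up and scaled to CPM, and compared as the log2 ratio of CPM + 1, which understates the change of low genes. Called means at least 2-fold. The groups are 1 sample each, so no p-value was computed. For shares, cells were thinned to 200000 reads, which left 57 cultured and 148 naive CAST/Ei and 28 cultured and 109 naive C57BL/6 neuron-like cells. Named were the genes of the release core and of its non-neuronal relatives, those past 2-fold in both strains, those past it between strains with at least 10 CPM in a group, and the extremes of the lists; a few others are named where a value singles them out. The scripts were tested on simulated data. Alternatives covered the choice of cells, weighting, scaling (median of ratios, and TMM from edgeR 4.0.16), pseudocounts of 10 and 0.1 CPM and a filter of 5 CPM. Gene lengths, exon overlaps and shared 50-base stretches are from GENCODE. Promoters are from RefSeq, in which 50 of 51 genes were matched.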

Additional observations from a re-analysis of the deposited data

Results flagged for a closer look

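The contrast went opposite ways for 2 genes, and these differences were not tested. Vamp1, a vesicle SNARE, was higher in cultured than in naive CAST/Ei neuron-like cells (log2 ratio 1.74) and lower in C57BL/6 (-1.01), a difference of 2.75. The same values seen between strains are 1.08 for cultured and -1.67 for naive CAST/Ei against C57BL/6 cells, also a difference of 2.75. Within cluster 1 the culture ratios of Vamp1 were -0.49 in CAST/Ei and -2.53 in C57BL/6, and without the naive cells of cluster 15 its naive strain ratio was -0.99, its C57BL/6 culture ratio -0.33, under 2-fold, and the difference 2.07. Stxbp4, a syntaxin-4 binding protein, was higher in cultured CAST/Ei than in cultured C57BL/6 cells (3.10) and lower in naive ones (-1.30), a difference of 4.39. Without its top cell in each group the cultured ratio was 0.75 and the naive one -1.29.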

How the results depend on the processing

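No paired analysis was possible because the numbers in the titles only number cells and each group is 1 sample, so no test was run. Of 194 recomputed counts of genes past 2-fold, 25 moved and the rest stayed within 1.5 times of the reported count, among them all under other clusters, scalings, a pseudocount of 0.1 CPM, a filter of 5 CPM, and without shallow or glia-rich cells, although without the glia-rich ones 78 ratios of single genes moved and 30 did not. Of the log2 ratios of single genes 44 changed sign, 682 moved by more than their spread and 821 did not. The cause of each change was not tested beyond its construction. Alternatives that use cluster 1 or 5 alone, leave out the top cell of each gene, or leave out cluster 15 were chosen after seeing the data. For the recomputed counts, shares of all genes are given only for cultured against naive cells in cluster 1, in cluster 5 and without the top cells. The other recomputed counts have no such share to be read against.

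Over all cells of a group, whatever their class, 8 genes were higher and 26 lower in cultured C57BL/6 than in naive cells, 3 were lower in cultured CAST/Ei than in cultured C57BL/6, and 16 and 2 had higher and lower responses. Neuron-like cells made up 32.4% of cultured and 87.9% of naive C57BL/6 cells. Counts over all cells therefore cannot tell a change in cell mix from a change within cells. The log2 ratios were then -0.16 for Cplx2, -0.12 for Stx4a, -0.22 for Syt4 and -0.85 for Vamp2 in cultured against naive C57BL/6. Between cultured strains they were 0.24 for Cplx2, 0.11 for Snap29, -0.26 for Stx17 and 0.25 for Syt5. The response differences were 0.083 for Cplx2, 0.052 for Stx4a, 0.25 for Syt4 and 0.049 for Vamp5. With every cell weighing the same, 5 genes had lower responses, and the values were 0.14 for Stx1a in C57BL/6, 0.14 for Snap29 between cultured strains and 0.060 for the response of Stx18. A pseudocount of 10 CPM left 8 genes lower in cultured C57BL/6 cells and 3 lower in naive CAST/Ei cells.

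With cluster 1 alone, 7 genes were higher and 22 lower in cultured C57BL/6 cells, 9 higher and 24 lower in cultured CAST/Ei cells, 7 higher and 3 lower in cultured CAST/Ei against C57BL/6, and 4 had lower responses. Against other cultured cells 14 were higher in CAST/Ei and 22 in C57BL/6. Cultured against naive C57BL/6 then gave -1.58 for Cplx2, -0.30 for Stx18, -0.30 for Stx4a, -1.24 for Stxbp6 and -1.44 for Vamp2, and CAST/Ei gave -0.49 for Vamp1 and -1.72 for Vamp2. Between cultured strains it gave 0.80 for Cplx2, 0.071 for Snap29, -0.25 for Stx17, -0.22 for Stx2 and 0.31 for Syt5, and for responses 0.51 for Cplx2, 0.24 for Stx5a, -0.59 for Stx6 and 0.035 for Vamp5. With cluster 5 alone, 18 genes had higher responses and 11 were lower than in other cultured C57BL/6 cells. The ratios were -2.91 for Snap23, 0.055 for Vamp1 and -0.30 for Vamp3 in C57BL/6, -0.46 for Stxbp3a, -0.99 for Stxbp3b and -0.65 for Vamp8 in CAST/Ei, and 0.27 for Syp between cultured strains.

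Without the top cell of each gene, 6 genes were higher and 20 lower in cultured C57BL/6 cells, 6 were lower in cultured CAST/Ei than in cultured C57BL/6, 4 had lower responses and 10 were lower than in other cultured C57BL/6 cells. Cplx2 was then -0.20 and Stxbp6 -0.92 in C57BL/6, Cplx2 0.40 and Snap29 0.12 between cultured strains, and the responses 0.085 for Cplx2 and 0.071 for Sv2c. Without cluster 15, 3 genes were lower in naive CAST/Ei cells. Syt3 and Syt16 had under 1 CPM in cultured cells and rest on few reads.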
